A study of Mus musculus with 9 samples.

Results

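The untreated diabetic group (dbdb, 3 libraries) was compared with the lean control group (control, 3 libraries) at the level of genes, by kidney function and nephron segment. These are 6 of the 9 libraries of the series, each made from the renal cortex of 1 male mouse at 15 weeks of age. The dbdb mice were homozygous for the db mutation of the leptin receptor gene Lepr on the C57BL/KsJ background and are labelled as type 2 diabetic. The control mice were db/m littermates, heterozygous for db, non-diabetic and labelled as normal controls, so both groups carried at least 1 mutated allele. The strain name given in the paper also holds the Dock7m allele, whose state in each group is not described. A difference between the groups in that allele could not be told apart from the other differences. The dbdb mice received vehicle by gavage for 8 weeks, from 7 weeks of age, and whether the control mice were also gavaged is not given in the sources used here. The mutation is present in every cell from birth, so obesity, diabetes and the loss of the receptor cannot be told apart in this comparison. FPKM, the number of fragments scaled to the length of the transcript and the depth of the library, was added up over the mRNA transcripts belonging to a gene, and 11615 of 21950 genes (52.9%) had a mean of at least 1 FPKM over the 9 libraries and were tested. The 3 remaining libraries, from db/db mice given rosiglitazone (dbR), entered only that filter and the estimate of the spread.

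The cortex holds the glomeruli, where blood is filtered, and most of the proximal tubule, which takes back glucose, amino acids, phosphate and protein and secretes organic anions. Its last part, S3, differs in the mouse between males and females because many of its genes depend on androgens. The loop of Henle, the distal convoluted tubule, the connecting tubule and the collecting duct then adjust salt, water, calcium and acid under the control of aldosterone, vasopressin and parathyroid hormone. The db/db mouse, whose leptin receptor cannot signal, overeats, becomes obese and hyperglycaemic and is used as a model of diabetic nephropathy.

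The steps between low FPKM values placed the relative depth between 0.939 and 1.02 of control replicate 1, and mitochondrially encoded mRNA made up 28.2% to 30.1% of summed FPKM (exact permutation test, two-sided, p = 0.9, n = 3 per group, smallest possible p 0.1). The summed FPKM of the remaining mRNA was 472871 to 514242 in the control libraries and 427041 to 453240 in the dbdb libraries, without overlap (exact permutation test, two-sided, p = 0.1). Replicates within these groups had a Pearson correlation of at least 0.982 across genes. Defining genes of cortex such as Slc34a1, Nphs1 and Slc12a3 were present in all 6 libraries, with the values given below, and Slc14a2, the urea transporter of the inner medulla, was at 0 in the control libraries and at no more than 0.060 FPKM in the dbdb libraries. A pair of libraries stood apart. In dbdb3, 36 of 39 genes of antigen presentation and the interferon response were higher than in the other 5 libraries. In control3, some genes were nearly absent, such as Hsp90aa1, a heat shock protein, at 143, 199 and 2.14 FPKM in control replicates 1, 2 and 3, and Rrp1, a ribosome biogenesis factor, at 41.9, 39.3 and 0.382 FPKM, a gene chosen after its values were seen. The lung genes Sftpc and Scgb1a1 were at 0 in control1, control2 and dbdb3 but at 10.1 and 38.6 FPKM in control3, at 11.8 and 39.5 FPKM in dbdb1 and at 10.6 and 43.2 FPKM in dbdb2. Their part in the results below was not tested. Where leaving out both dbdb3 and control3 moved a count of a list by over 1.5 times, the counts without them are given beside it, and for some of the other lists as well.

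The mutated gene itself was below the filter. Lepr (ENSMUSG00000057722, chr4:101717404-101815352, plus strand, build GRCm38) was at 1.19, 1.05 and 1.23 FPKM in the control libraries and 0.652, 0.331 and 0.304 FPKM in the dbdb libraries. All 3 dbdb libraries lay below all 3 control libraries, with a log2 fold change of -1.31 (SE 0.25, adjusted p = 0.0043) in a limma fit with a minimum mean of 0.1 FPKM. The sum covers all transcripts of the gene and does not separate its signalling form.

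Of the 11615 genes tested, 3498 (30.1%) were called at a Benjamini-Hochberg adjusted p under 0.05 from limma on log2(FPKM + 0.1). Of these, 1728 (14.9% of the genes tested) were higher and 1770 (15.2%) were lower in the dbdb group. The 3 dbdb libraries did not overlap with the 3 control libraries for 5260 genes (45.3%), among them 3461 of the called genes. Most changes were small, with a median size of 0.44 on the log2 scale among called genes. A called change of at least 1 on the log2 scale was seen upwards for 178 genes (1.53%) and downwards for 207 (1.78%), and 29 and 39 genes passed 2. Without dbdb3 and control3, 2178 genes (18.8%) were called, 1114 higher (9.59%) and 1064 lower (9.16%), and 2001 of them were among the 3498. None of the 3498 genes had the other sign without these libraries.

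How the libraries are scaled moved the balance of directions. With the 13 mitochondrially encoded genes left out and the libraries set to the same sum, the median log2 fold change of all genes was 0.148, against -0.0076 with the FPKM as deposited, and 3246 of 4074 called genes (79.7%) were higher. Below, leaving out mitochondrial genes always includes setting the libraries to the same sum. The mean mitochondrial share was 29.3% in control and 29.2% in dbdb libraries. The mean sum of the remaining mRNA differed by -51276 FPKM (dbdb minus control), and Kap alone had means of 38868 and 5267 FPKM. Equal sums therefore raise the other genes in the dbdb libraries relative to the control libraries. With the libraries set to the same 75th percentile, 60.7% of 3520 called genes were higher, against 49.4% with the FPKM as deposited. Group changes of under about 0.2 on the log2 scale therefore depend on the scaling.

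**Figure D1:**
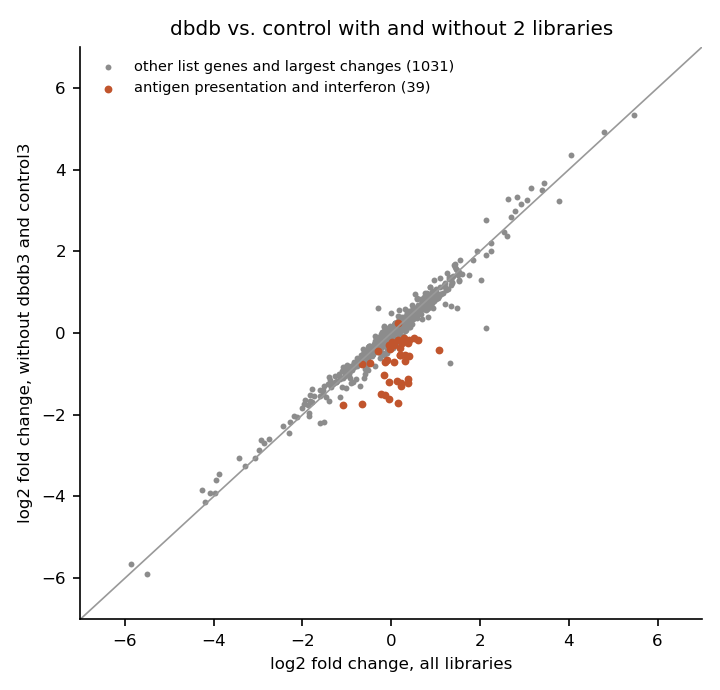
Log2 fold change (dbdb vs. control, log2(FPKM + 0.1)) from all libraries (x axis) against the value without dbdb3 and control3 (y axis), 1 point per gene of the lists and the largest changes. Most of the other genes (grey) lie close to the line of equal values, with exceptions such as Hsp90aa1 (1.32 with all libraries and -0.74 without both), while most of the 39 genes of antigen presentation and the interferon response (orange) lie below it.

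The largest decreases included transporters and enzymes of the proximal tubule. Slc22a7, an organic anion transporter, was at 32.1, 22.4 and 39.5 FPKM in the control libraries and 0.355, 0.529 and 0.418 FPKM in the dbdb libraries (log2 fold change -5.85, SE 0.31, adjusted p = 5.51e-06). Slco1a1, which takes up organic anions and steroid conjugates, was at 209.5, 201 and 382 FPKM in the control libraries and 3.49, 3.16 and 14.9 FPKM in the dbdb libraries (log2 fold change -5.5, SE 0.55, adjusted p = 0.00011). The libraries of the groups did not come near each other for either gene, although dbdb3 was higher than the other dbdb libraries for Slco1a1, whose log2 fold change was -6.2 without it. Cyp7b1, an oxysterol hydroxylase, fell from 61 ± 18.6 to 3.25 ± 0.923 FPKM (mean ± SD, n = 3 per group here and below; log2 fold change -4.19, SE 0.23, adjusted p = 6.14e-06). Alox15, a lipoxygenase, fell from 25.7 ± 5.72 to 1.42 ± 0.305 FPKM (log2 fold change -4.08), and Slc22a26, another transporter of the Slc22 family, fell from 11.5 ± 2.32 to 0.626 ± 0.0722 FPKM (-3.98). The list of the 15 largest decreases also held Masp2, a protease of the lectin pathway of complement (from 3.07 to 0.0977 FPKM), Acsm3, a medium-chain acyl-CoA synthetase (from 164 to 10.4 FPKM), Ces2b, a carboxylesterase (from 4.58 to 0.307 FPKM), Pzp, a protease inhibitor (from 35.3 to 4.16 FPKM), Hsd17b2, which inactivates sex steroids (from 7.67 to 0.869 FPKM), and Gm853 (from 22 to 1.04 FPKM). Slc22a7, Slc22a26, Masp2, Ces2b and Hsd17b2 had dbdb means under 1 FPKM and passed the filter only through the control libraries, so that passing required a difference between groups.

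The largest increases included enzymes of conjugation and fatty acid hydroxylation. Ugt1a2, a UDP-glucuronosyltransferase, was at 5.73, 4.11 and 2.18 FPKM in the control libraries and 258, 156 and 121 FPKM in the dbdb libraries (log2 fold change 5.47, SE 0.36, adjusted p = 1.15e-05), and the lowest dbdb library exceeded the highest control library many times over. Cyp4a14, an omega-hydroxylase of fatty acids and a classical target of PPARα, was at 4.67, 6.27 and 5.7 FPKM in the control libraries and 183, 151 and 134 FPKM in the dbdb libraries (log2 fold change 4.79, SE 0.14, adjusted p = 1.1e-07). This was the smallest adjusted p of all genes tested, and the spread within each group was small beside the difference. Bhmt, which remethylates homocysteine with betaine, rose from 2.97 ± 0.592 to 35 ± 14.2 FPKM (log2 fold change 3.43). Lower-expressed genes among the 15 largest increases were Defb2, a beta-defensin listed at 0 in 2 control libraries (0, 0.529 and 0 FPKM in the control libraries and 4.31, 1.18 and 2.82 FPKM in the dbdb libraries), Gsta1, a glutathione S-transferase (from 0.477 to 5.68 FPKM), Marc1, a mitochondrial reductase (from 0.341 to 3.3 FPKM), Hif3a, a hypoxia-inducible factor subunit (from 0.244 to 2.14 FPKM), Aim1l (from 0.691 to 6.06 FPKM) and Gm6484 (from 0.276 to 1.67 FPKM). These lower-expressed genes had control means under 1 FPKM and passed the filter only through the db/db groups, so that passing required a difference here as well. The log2 fold change of Gsta1, highest in dbdb1, was 3.14, and 2.66 without that library. The log2 fold change of Defb2 was 3.78, and 4.67 without control2, and that of Gm6484 was 2.63, from 1.87 without control1 to 3.27 without control3. Gc, the vitamin D-binding protein, rose from 5.75 to 33.5 FPKM. The Ugt1a genes share all exons but the first, and Gsta1 is close in sequence to Gsta2, so their levels rest on how Cufflinks divided the reads.

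All tested markers of the late proximal tubule fell. The 16 markers of S3 were all called lower, with a median log2 fold change of -1.90, and in each case all dbdb libraries lay below all control libraries. Without dbdb3 and control3, 15 of the 16 were called lower, the exception being Serpina1f, a serpin (from 39 to 18.8 FPKM, adjusted p = 0.0154, 0.0539 without control3 and 0.113 without both). Their summed FPKM was 40007 to 51951 FPKM in the control libraries and 7036 to 8149 FPKM in the dbdb libraries. In bulk tissue, fewer cells of a type and less RNA of a gene per cell cannot be told apart.

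**Figure D2:**
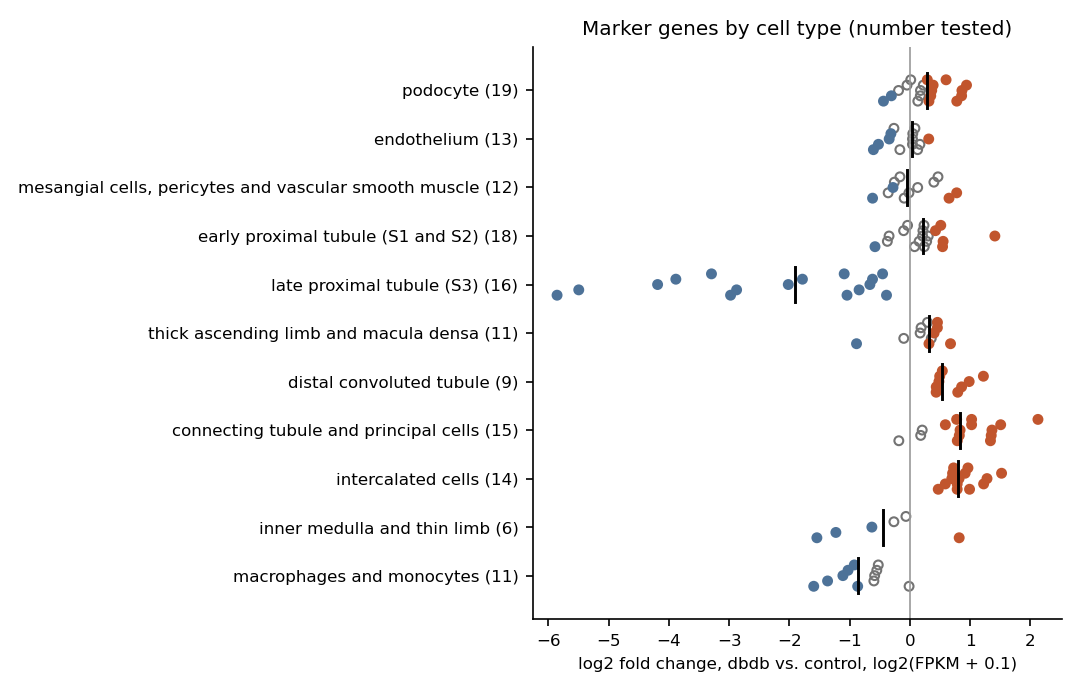
Log2 fold change (dbdb vs. control, log2(FPKM + 0.1)) of each tested marker gene of a nephron segment or cell type, with the number tested in brackets. Orange and blue points were called higher and lower, open points were not called, and black bars are medians. The 16 S3 markers lie left of 0 and the 14 intercalated cell markers right of it.

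Kap, the kidney androgen-regulated protein and the most abundant of these transcripts, was at 34964, 35883 and 45755 FPKM in the control libraries and 5278, 5728 and 4796 FPKM in the dbdb libraries. It held 7.15% to 8.90% of the FPKM outside the mitochondrial genes in the control libraries and 1.12% to 1.30% in the dbdb libraries, without overlap (log2 fold change -2.88, SE 0.15, adjusted p = 5.51e-06). Slc7a13, an aspartate, glutamate and cystine carrier restricted to S3, was at 448, 398 and 566 FPKM in the control libraries and 55.4, 60.4 and 61.7 FPKM in the dbdb libraries (log2 fold change -2.98, SE 0.16, adjusted p = 5.51e-06). Atp11a, a phospholipid flippase, fell from 269 ± 37.7 to 66.1 ± 6.47 FPKM (log2 fold change -2.02), and Slc22a19, an organic anion transporter, fell from 35.5 ± 5.23 to 3.53 ± 0.498 FPKM (-3.29). The smallest changes of the list were those of Slc3a1, a subunit of the cystine transporter (from 288 to 219.5 FPKM, -0.39), and Slco1a6 (from 162 to 118 FPKM, -0.45), so the size of the decrease ranged widely within the segment's markers.

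Genes that depend on androgens in the male mouse proximal tubule mostly fell. Of 19 tested, 16 fell and 1 rose, with a median of -1.74, and 15 fell without dbdb3 and control3 (median -1.39). The list shares Kap, Slco1a1, Cyp7b1, Acsm3, Slc7a13, Slc22a30, Cyp2e1 and Serpina1f with the S3 markers, so the counts are not independent. Outside that overlap, Odc1, the first enzyme of polyamine synthesis, was at 301, 233 and 536 FPKM in the control libraries and 102, 104 and 85.4 FPKM in the dbdb libraries (log2 fold change -1.79, SE 0.24, adjusted p = 0.000536). Cyp4a12a, a fatty acid omega-hydroxylase that is higher in males, was at 108, 109.6 and 164 FPKM in the control libraries and 31.7, 18.1 and 29.1 FPKM in the dbdb libraries (log2 fold change -2.28, SE 0.25, adjusted p = 0.000166). The control libraries exceeded the dbdb libraries for both, and control3 was the highest. Ces1f, a carboxylesterase, fell from 590.1 ± 80.4 to 176 ± 18.4 FPKM, Cyp2j13, a P450 epoxygenase, fell from 221 ± 28.7 to 72.3 ± 10.3 FPKM, and Timd2, a ferritin receptor, fell from 61.7 ± 5.17 to 30.5 ± 2.64 FPKM. Prlr, the prolactin receptor, was the member that rose, at 16.9, 17.8 and 5.32 FPKM in the control libraries and 27.4, 29.3 and 25 FPKM in the dbdb libraries (adjusted p = 0.0321). Its control3 value was far below the other control libraries, and it was not called without any 1 of the dbdb libraries (adjusted p up to 0.0875).

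**Figure D3:**
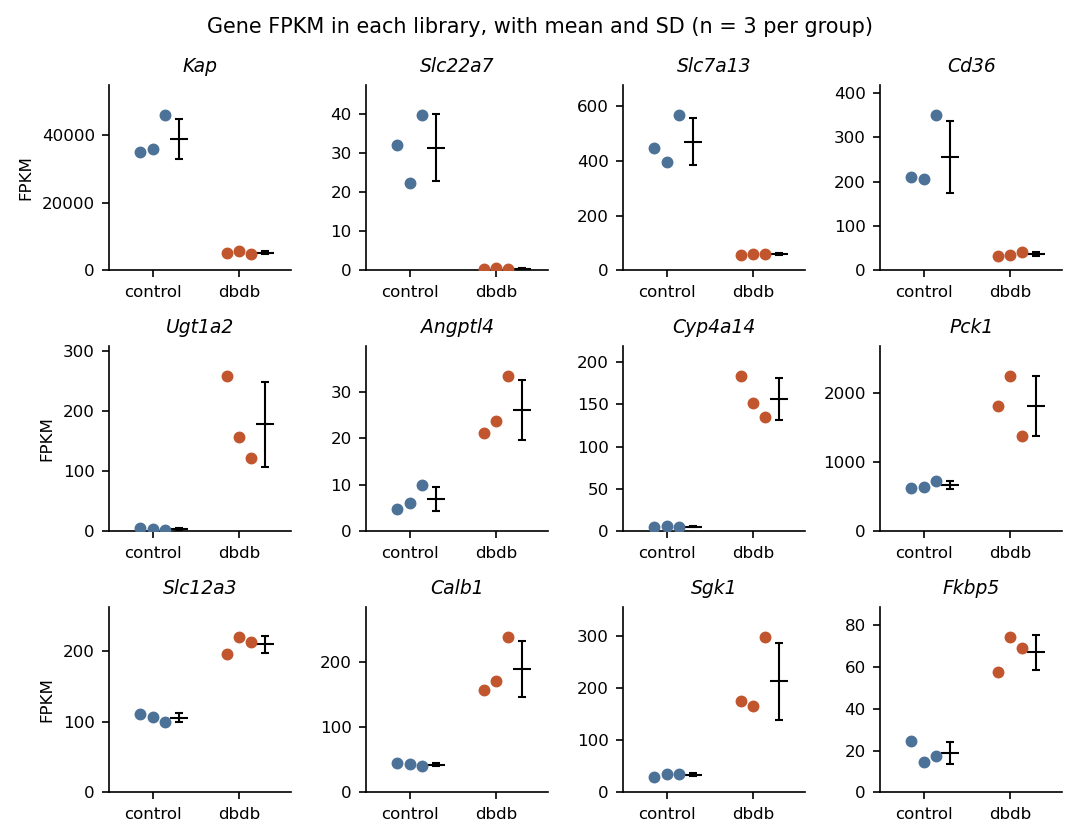
Gene FPKM (y axis, linear, from 0) in each of the 3 control and 3 dbdb libraries (points) for 12 genes, with the mean and SD of each group. The groups do not overlap for any of the 12, with Kap lower in all dbdb libraries and Sgk1 rising to between 165 and 297 FPKM.

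Of 18 markers of S1 and S2, the early proximal tubule, 5 rose, 1 fell and 12 were not called (median 0.22). Without dbdb3 8 rose and 1 fell, without control3 2 rose and 2 fell, without both 6 rose and 1 fell, and with mitochondrial genes left out 10 rose and 1 fell. Pck1, phosphoenolpyruvate carboxykinase and the controlling enzyme of gluconeogenesis, was at 630.5, 645 and 728 FPKM in the control libraries and 1808, 2236 and 1371 FPKM in the dbdb libraries (log2 fold change 1.41, SE 0.15, adjusted p = 0.000157). Every dbdb library was above every control library. Slc5a12, a lactate carrier, rose from 186 ± 15.2 to 271 ± 11.1 FPKM (log2 fold change 0.55), while Slc22a6, the organic anion transporter OAT1, fell from 273 ± 9.91 to 183 ± 18.4 FPKM (-0.58). Slc34a1 (the phosphate carrier NaPi-IIa) and Miox (myo-inositol oxygenase) were at means of 1269 and 1497 FPKM and 1639 and 1259 FPKM and were not called.

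Of 17 genes of gluconeogenesis and fructose metabolism, 11 rose and none fell (median 0.41), and 9 rose without dbdb3 and control3. G6pc, glucose-6-phosphatase, which releases glucose from the cell, was at 126, 163 and 199 FPKM in the control libraries and 465, 425 and 409 FPKM in the dbdb libraries (log2 fold change 1.43, SE 0.15, adjusted p = 0.000159). Gpt, alanine aminotransferase, was at 7.61, 6.8 and 9.71 FPKM in the control libraries and 17.3, 19.8 and 15.1 FPKM in the dbdb libraries (log2 fold change 1.11, SE 0.15, adjusted p = 0.000632). Both genes were separated completely between the groups. Pcx, pyruvate carboxylase, rose from 145 ± 2.27 to 201 ± 22.4 FPKM (log2 fold change 0.46), Tkfc, triokinase, rose from 107 ± 3.54 to 145 ± 18 FPKM (0.43), and Got1, cytosolic aspartate aminotransferase, rose from 44.5 ± 2.22 to 54.7 ± 0.735 FPKM (0.30).

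Glucose transport genes also rose, 9 of 13 tested with none lower (median 0.52). Slc2a4, the insulin-responsive carrier GLUT4, rose from 4.1 ± 0.92 to 8.84 ± 0.916 FPKM (log2 fold change 1.11, SE 0.14, adjusted p = 0.000371). Txnip, which restrains glucose uptake and is induced by glucose, was at 70.6, 67.1 and 67 FPKM in the control libraries and 122, 127 and 179 FPKM in the dbdb libraries (log2 fold change 1.04, SE 0.13, adjusted p = 0.000313), highest in dbdb3 but without overlap. Slc5a2, the carrier SGLT2 that takes back most filtered glucose, was at 233, 198 and 204 FPKM in the control libraries and 299, 316 and 240.2 FPKM in the dbdb libraries (log2 fold change 0.42, SE 0.12, adjusted p = 0.0207). It was not called without control2, control3, dbdb1 or dbdb2, the adjusted p reaching 0.0781 without dbdb2. Slc2a9, a urate and fructose carrier, rose from 5.999 ± 1.84 to 10.7 ± 0.592 FPKM, Slc5a10, a mannose and fructose carrier, rose from 78.4 ± 6.73 to 137 ± 17.8 FPKM, and Slc2a1, GLUT1, rose from 6.88 ± 0.793 to 9.53 ± 0.714 FPKM. Slc2a2, GLUT2, and Slc5a1, SGLT1, were at means of 72.2 and 85.1 FPKM and 19.4 and 20.8 FPKM and were not called.

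Glycolysis genes were mixed in size, with 8 of 20 called higher and 1 lower (median 0.20). Hk1, hexokinase, rose from 11.6 ± 1.53 to 21.3 ± 1.85 FPKM (log2 fold change 0.88), Pkm and Pklr, the pyruvate kinases, rose from 45.5 ± 2.58 to 81.7 ± 9.39 FPKM (0.84) and from 19.4 ± 2.73 to 34.7 ± 2.74 FPKM (0.84), and Pgam2, a phosphoglycerate mutase, rose from 12.6 ± 1.94 to 26.3 ± 1.38 FPKM (1.07). Ldha, lactate dehydrogenase A, was the member that fell (from 378 ± 42 to 285 ± 16.7 FPKM, -0.41).

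Markers of the distal nephron rose in every segment after the loop of Henle. All 9 tested markers of the distal convoluted tubule, 12 of 15 of the connecting tubule and principal cells and all 14 of the intercalated cells were called higher, none lower, with medians of 0.54, 0.83 and 0.80. Without dbdb3 and control3 the counts were 8, 12 and 14. The thick ascending limb differed less, with 5 of 11 higher, 1 lower and a median of 0.32, but 2 higher and 2 lower without dbdb3, 2 and 1 without control3 and 1 and 1 without both. The markers of the inner medulla and thin limb gave 1 higher and 3 lower of 6 tested, and their summed FPKM was 2179 to 2456 FPKM in the control libraries and 1766 to 2059.6 FPKM in the dbdb libraries.

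Among the markers listed for the thick ascending limb, Cldn10, a claudin, fell from 138 ± 5.34 to 74.8 ± 6.42 FPKM (log2 fold change -0.89, SE 0.078, adjusted p = 5.14e-05), and Sostdc1, a BMP and Wnt antagonist of the macula densa region, rose from 22 ± 1.5 to 35.1 ± 2.91 FPKM (log2 fold change 0.67, SE 0.078, adjusted p = 0.000225). The Cldn10 sum covers all transcripts of the gene, so its fall cannot be placed in this segment or given to 1 form. Egf and Umod, which encode epidermal growth factor and uromodulin, were at means of 219 ± 14.8 and 251 ± 42.8 FPKM and 277 ± 43 and 266 ± 94.5 FPKM and were not called.

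In the distal convoluted tubule, Slc12a3, the thiazide-sensitive sodium chloride cotransporter NCC, was at 112, 107 and 99.4 FPKM in the control libraries and 196, 219 and 213 FPKM in the dbdb libraries (log2 fold change 0.98, SE 0.074, adjusted p = 2.27e-05). Trpm6, the magnesium channel, was at 2.04, 2.94 and 2.22 FPKM in the control libraries and 5.32, 5.69 and 5.98 FPKM in the dbdb libraries (log2 fold change 1.22, SE 0.13, adjusted p = 0.000124). Values within each group were close together and the groups were clearly apart for both genes. Wnk4, a kinase that controls NCC, rose from 44.6 ± 6.83 to 80.5 ± 7.03 FPKM (log2 fold change 0.86), and Klhl3, the adaptor that marks WNK kinases for degradation, rose from 6.79 ± 0.515 to 11.8 ± 0.785 FPKM (0.79). Pvalb, parvalbumin, rose from 59.6 ± 6.06 to 86.5 ± 7.68 FPKM (0.54).

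In the connecting tubule and principal cells, Calb1, the calcium-binding protein calbindin-D28k, was at 44.8, 43.5 and 39.95 FPKM in the control libraries and 158, 172 and 238 FPKM in the dbdb libraries (log2 fold change 2.12, SE 0.14, adjusted p = 1.15e-05). Scnn1a, the alpha subunit of the epithelial sodium channel, was at 16.8, 12.8 and 12 FPKM in the control libraries and 31.1, 35.4 and 39.2 FPKM in the dbdb libraries (log2 fold change 1.35, SE 0.12, adjusted p = 6.25e-05). For both genes dbdb3 was the highest library, and every dbdb library was above every control library. Scnn1b and Scnn1g, the beta and gamma subunits, rose from 9.45 ± 0.255 to 16.4 ± 1.38 FPKM (log2 fold change 0.79) and from 7.53 ± 0.395 to 15.4 ± 1.34 FPKM (1.02). Aqp2, the vasopressin-regulated water channel, was at 37.1, 28 and 35.6 FPKM in the control libraries and 121, 55.3 and 89.4 FPKM in the dbdb libraries (log2 fold change 1.34, SE 0.23, adjusted p = 0.00236). It varied more among the dbdb libraries than among the control libraries. Avpr2, the vasopressin receptor of these cells, rose from 2.58 ± 0.15 to 4.7 ± 1.02 FPKM (0.82), and Klk1, tissue kallikrein, rose from 1010.5 ± 80.8 to 1522 ± 182 FPKM (0.59). Fxyd4 and Aqp3, a regulator of the sodium pump and a basolateral water channel, were at means of 17.5 and 15.2 FPKM and 46.5 and 53.9 FPKM and were not called.

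Both kinds of intercalated cell were represented among the genes that rose. Slc4a1, the anion exchanger AE1 of the acid-secreting type A cells, was at 3.4, 2.93 and 2.64 FPKM in the control libraries and 7.26, 6.14 and 7.96 FPKM in the dbdb libraries (log2 fold change 1.22, SE 0.12, adjusted p = 7.71e-05). Slc26a4, pendrin, the chloride and bicarbonate exchanger of type B cells, rose from 13.5 ± 0.816 to 22.4 ± 1.64 FPKM (log2 fold change 0.72, SE 0.078, adjusted p = 0.000163). Aqp6, a channel of type A cells, was at 6.01, 4.5 and 3.93 FPKM in the control libraries and 13.5, 12.5 and 15.6 FPKM in the dbdb libraries (log2 fold change 1.52, SE 0.15, adjusted p = 0.000118), with no overlap between groups. Foxi1, the transcription factor that specifies these cells, rose from 5.52 ± 0.229 to 9.57 ± 0.287 FPKM (log2 fold change 0.78), and Atp6v1b1, a subunit of the proton pump, rose from 25 ± 1.75 to 43.3 ± 5.48 FPKM (0.78).

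By function, 17 of 25 genes of sodium reabsorption rose and none fell (median 0.44), 13 without dbdb3 and control3. Beside the segment markers these included Kcnj10, a potassium channel (from 8.13 to 15.9 FPKM, log2 fold change 0.96), Nr3c2, the mineralocorticoid receptor (from 5.97 to 7.9 FPKM, 0.40), and Hsd11b2, which protects that receptor from glucocorticoids (from 25.4 to 51.4 FPKM, 1.02). Slc9a3, the proximal sodium and proton exchanger NHE3, was at means of 36.6 ± 2.27 and 38.6 ± 1.93 FPKM and was not called.

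Of 19 genes of phosphate, calcium and vitamin D handling, 9 rose and none fell (median 0.31). Trpv5, the apical calcium channel of the distal nephron, was at 3.16, 3.55 and 3.4 FPKM in the control libraries and 9.46, 8.82 and 11.1 FPKM in the dbdb libraries (log2 fold change 1.51, SE 0.12, adjusted p = 3.82e-05). Slc8a1, the sodium and calcium exchanger, rose from 51.1 ± 4.16 to 132 ± 14.3 FPKM (log2 fold change 1.36), and S100g, calbindin-D9k, rose from 971 ± 44.6 to 1728 ± 99.1 FPKM (0.83). Cyp27b1, which makes active vitamin D, was at 1.57, 3.03 and 3.2 FPKM in the control libraries and 28.8, 17.9 and 12 FPKM in the dbdb libraries (log2 fold change 2.84, SE 0.31, adjusted p = 0.00017), and Cyp24a1, which breaks it down, was at 11.7, 14.6 and 6.27 FPKM in the control libraries and 15.7, 66.8 and 69.1 FPKM in the dbdb libraries (log2 fold change 2.02, SE 0.52, adjusted p = 0.0163). Cyp24a1 was low in dbdb1 alone of the dbdb libraries, and it was not called without dbdb2, dbdb3 or control3 (log2 fold change 1.31, adjusted p = 0.133 without dbdb3 and control3). Without dbdb1 its log2 fold change was 2.72. Vdr, the vitamin D receptor, and Slc34a3, a phosphate carrier, were at means of 42.8 and 49.9 FPKM and 22.7 and 27.2 FPKM and were not called, although Slc34a3 had an adjusted p of 0.0326 without both libraries.

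Acid-base transport and ammonia handling gave 16 of 23 genes higher and 3 lower (median 0.47). Glud1, glutamate dehydrogenase, which releases ammonium from glutamate, was at 172, 168 and 150.4 FPKM in the control libraries and 323, 311 and 269 FPKM in the dbdb libraries (log2 fold change 0.88, SE 0.088, adjusted p = 0.000106). Rhbg, an ammonia channel, was at 6.43, 6.22 and 5.71 FPKM in the control libraries and 13.5, 13.5 and 18.5 FPKM in the dbdb libraries (log2 fold change 1.28, SE 0.12, adjusted p = 9.01e-05). Slc38a3, the glutamine carrier SNAT3, rose from 12 ± 0.496 to 19.7 ± 3.08 FPKM (log2 fold change 0.70), and Glul, glutamine synthetase, rose from 248 ± 23.8 to 398 ± 35.7 FPKM (0.68). Among carbonic anhydrases, Car4, the membrane form of the proximal tubule, and Car3 fell from 138 ± 15.2 to 51.3 ± 6.31 FPKM (-1.43) and from 31.4 ± 2.47 to 14 ± 3.005 FPKM (-1.19), whereas Car15, Car14 and Car2 rose from 31.3 to 55.9 FPKM (0.81), from 98.3 to 137 FPKM (0.47) and from 243 to 332 FPKM (0.45).

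Genes of water channels and vasopressin signalling gave 4 of 9 higher and 2 lower. Aqp4, a basolateral channel, fell in all 3 dbdb libraries (15.8, 15 and 17.1 FPKM in the control libraries and 5.41, 6.2 and 4.72 FPKM in the dbdb libraries, log2 fold change -1.54, SE 0.26, adjusted p = 0.00214), and Aqp7, the aquaglyceroporin of S3, fell from 13.1 ± 1.21 to 8.98 ± 0.235 FPKM (log2 fold change -0.54). Avpr1a, another vasopressin receptor, rose from 1.52 ± 0.186 to 2.47 ± 0.332 FPKM (0.66).

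**Figure D4:**
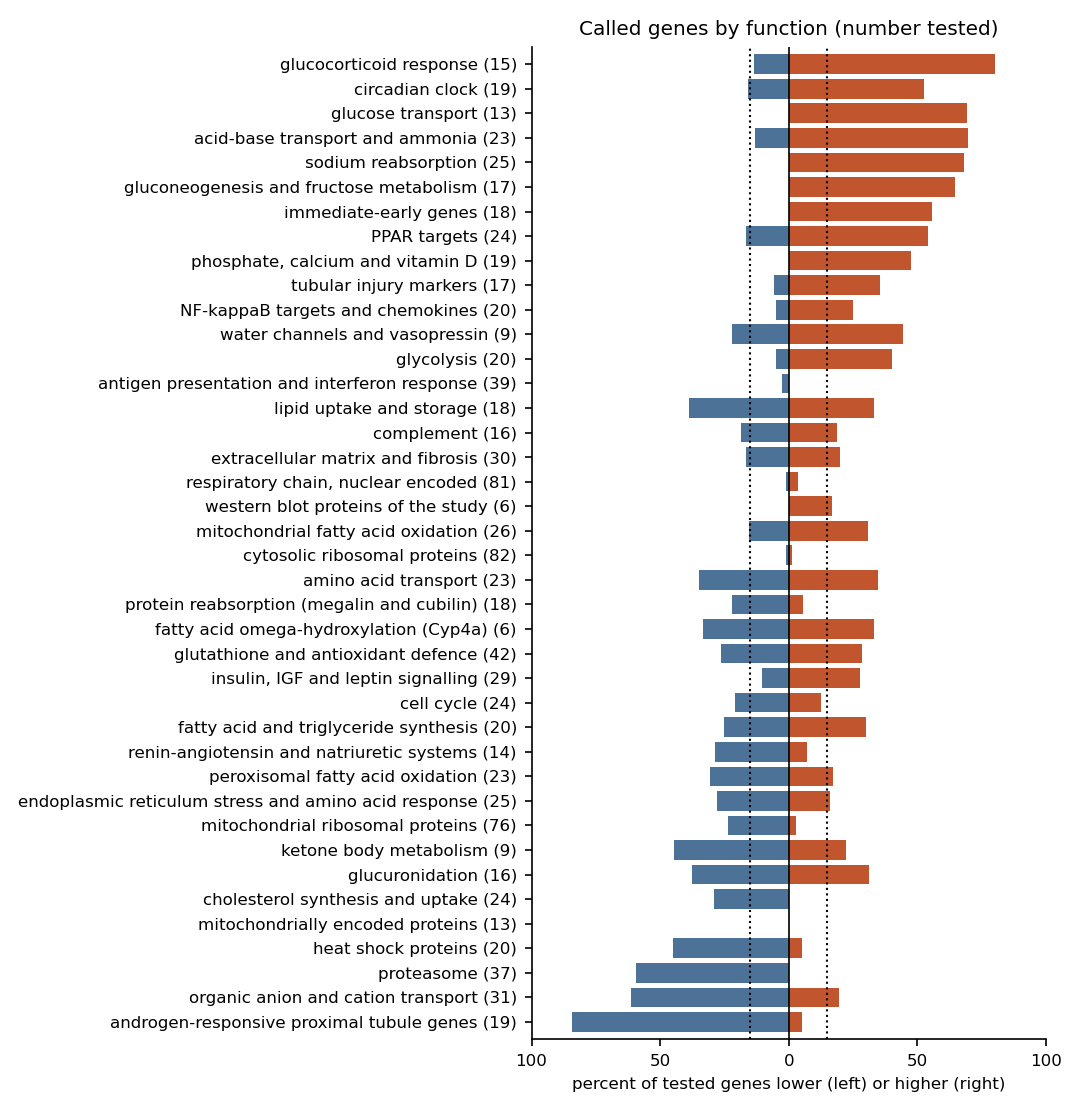
Percent of the tested genes of each function list that were called lower (blue, left) or higher (orange, right) in the dbdb group, with the number tested in brackets. Dotted lines mark the 14.9% higher and 15.2% lower among all 11615 genes. Lists are ordered by their median log2 fold change, from the glucocorticoid response at the top to the androgen-responsive genes at the bottom.

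Glucocorticoid target genes and core clock genes changed in the dbdb cortex. The glucocorticoid receptor is a nuclear receptor that binds a palindromic DNA element, and the clock proteins CLOCK and BMAL1 bind the E-box. Promoters of 4 of the genes that rose are shown because each holds such a letter pattern within 250 bases before and 50 bases after its annotated start. The sequences are from RefSeq, build GRCm38.p6, 5′ to 3′ on the strand of the gene, and capitals mark the match of the motif named for that promoter. Sgk1 lies at chr10:21993640-21993939 (plus strand, 1 of 6 windows of the gene), Mt1 at chr8:94178839-94179138 (plus strand), Per1 at chr11:69098699-69098998 (plus strand, 1 of 2 windows) and Cry1 at chr10:85185005-85185304 (minus strand). Sgk1 and Mt1 show the palindrome, starting 188 and 94 bases before the start, and Per1 and Cry1 show the E-box, starting 166 and 60 bases before it. The Sgk1 window also holds an E-box near its 5′ end, left in lower case.
Sgk1: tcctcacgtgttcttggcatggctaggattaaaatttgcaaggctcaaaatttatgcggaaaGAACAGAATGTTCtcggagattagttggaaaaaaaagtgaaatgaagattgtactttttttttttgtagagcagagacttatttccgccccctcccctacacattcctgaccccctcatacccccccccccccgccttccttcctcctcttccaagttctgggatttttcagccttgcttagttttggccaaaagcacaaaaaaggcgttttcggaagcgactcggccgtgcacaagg
Mt1: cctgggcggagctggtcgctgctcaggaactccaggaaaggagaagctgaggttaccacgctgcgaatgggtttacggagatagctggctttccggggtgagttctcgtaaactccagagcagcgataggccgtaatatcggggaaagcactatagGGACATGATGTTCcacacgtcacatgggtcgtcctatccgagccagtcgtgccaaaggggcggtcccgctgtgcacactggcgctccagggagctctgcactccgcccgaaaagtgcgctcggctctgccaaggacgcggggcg
Per1: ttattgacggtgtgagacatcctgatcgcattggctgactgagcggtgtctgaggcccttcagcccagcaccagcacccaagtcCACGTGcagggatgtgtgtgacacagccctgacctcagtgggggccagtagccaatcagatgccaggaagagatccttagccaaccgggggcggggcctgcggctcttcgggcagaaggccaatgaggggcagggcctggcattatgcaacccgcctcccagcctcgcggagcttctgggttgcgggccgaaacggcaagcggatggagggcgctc
Cry1: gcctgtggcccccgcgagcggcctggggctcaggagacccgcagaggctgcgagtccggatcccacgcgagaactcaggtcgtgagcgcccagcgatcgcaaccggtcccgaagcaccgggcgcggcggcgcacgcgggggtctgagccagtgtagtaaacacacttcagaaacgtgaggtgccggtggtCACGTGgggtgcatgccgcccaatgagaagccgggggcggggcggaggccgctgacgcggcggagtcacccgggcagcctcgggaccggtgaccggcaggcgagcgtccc

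The palindrome was searched as GNACANNNTGTNC and the E-box as CACGTG, both reading the same on either strand and not overlapping each other. Windows were matched by symbol for 8854 tested genes, of which 0.418% held the palindrome and 12.1% the E-box. The palindrome was in 0.475% of all 32851 windows and the E-box in 7.15%. Among genes called higher, 11 of 1304 with a window (0.844%) held the palindrome, and among genes called lower 3 of 1319 (0.227%). For the E-box the shares were 11.7% and 11.4%. Of the 12 glucocorticoid list genes with a window, Mt1 and Sgk1 held the palindrome and Fkbp5, Per1 and Sgk1 the E-box, and of the 15 clock genes, Bhlhe41, Ciart, Cry1, Per1 and Tef held the E-box. A match describes the letters only and not binding in these tissues.

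Of 15 tested genes of the glucocorticoid response, 12 rose and 2 fell, and 12 rose without dbdb3 and control3 (medians 1.37 and 1.42). Sgk1, the kinase that keeps epithelial sodium channels at the membrane, was at 30.2, 35.3 and 35.4 FPKM in the control libraries and 176, 165 and 297 FPKM in the dbdb libraries (log2 fold change 2.61, SE 0.33, adjusted p = 0.00039). Fkbp5, a chaperone of the glucocorticoid receptor, was at 24.6, 14.7 and 17.4 FPKM in the control libraries and 57.6, 73.9 and 69.1 FPKM in the dbdb libraries (log2 fold change 1.85, SE 0.16, adjusted p = 5.08e-05). Both were separated between the groups, Sgk1 with its highest value in dbdb3. Zbtb16, a transcriptional repressor, was at 1.43, 0.959 and 2.53 FPKM in the control libraries and 9.18, 11 and 13.2 FPKM in the dbdb libraries (log2 fold change 2.78, SE 0.27, adjusted p = 9.96e-05). The metallothioneins Mt1 and Mt2 rose from 132 ± 9.68 to 369 ± 66.2 FPKM (log2 fold change 1.47) and from 61.9 ± 9.59 to 149 ± 29.4 FPKM (1.26), and Tsc22d3, the mediator GILZ, rose from 33.3 ± 5.39 to 64.6 ± 10.03 FPKM (0.96). The members that fell were Nr3c1, the glucocorticoid receptor (from 48.1 ± 2.53 to 36.6 ± 1.48 FPKM, -0.39), and Hsd11b1, which regenerates active glucocorticoid. Hsd11b1 was at 59.6, 62.1 and 171 FPKM in the control libraries and 19.9, 19.1 and 29 FPKM in the dbdb libraries (log2 fold change -1.94, SE 0.35, adjusted p = 0.00274), with control3 far above the other control libraries, and it was not called from the highest transcript alone (adjusted p = 0.262). Ddit4, an inhibitor of mTOR signalling, was at means of 4.32 ± 0.93 and 8.23 ± 3.33 FPKM and was not called. Several of these genes, such as Per1, Cdkn1a and Pdk4, stand also on other lists.

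Clock genes gave 10 of 19 higher and 3 lower (median 0.53). Cry1 and Per2, repressors of the clock, were at 0.971, 0.695 and 0.949 FPKM in the control libraries and 3.92, 4.41 and 5.13 FPKM in the dbdb libraries (log2 fold change 2.24, SE 0.16, adjusted p = 1.43e-05) and at 7.18, 6.55 and 7.79 FPKM in the control libraries and 15.8, 16.8 and 17.3 FPKM in the dbdb libraries (log2 fold change 1.2, SE 0.076, adjusted p = 9.35e-06). The control values of Cry1 were all under 1 FPKM, so it passed the filter only through the db/db groups. Per1 was at 16.2, 11 and 14.1 FPKM in the control libraries and 43.4, 35.7 and 36 FPKM in the dbdb libraries (log2 fold change 1.48, SE 0.16, adjusted p = 0.000138). Nr1d1, the nuclear receptor REV-ERBα, was at 26.4, 26.9 and 19.9 FPKM in the control libraries and 11.2, 11.8 and 7.86 FPKM in the dbdb libraries (log2 fold change -1.25, SE 0.19, adjusted p = 0.00109), the opposite direction, and all 4 genes were without overlap. Cry2 and Usp2 rose from 6.04 to 11.6 FPKM (log2 fold change 0.93) and from 57.4 to 92.4 FPKM (0.69). The hour at which each cortex was taken is not given in the sources used here.

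Immediate-early genes, which respond rapidly to extracellular signals, gave 10 of 18 higher and none lower (median 0.39), and 7 higher without dbdb3 and control3. Dusp1, a phosphatase of MAP kinases and itself a glucocorticoid target, rose from 17.7 ± 2.01 to 51.5 ± 9.55 FPKM (log2 fold change 1.53, SE 0.20, adjusted p = 0.000475), and Ier3 rose from 16.9 ± 4.54 to 41.2 ± 6.79 FPKM (log2 fold change 1.31, SE 0.24, adjusted p = 0.00301). Jun rose from 9.25 ± 1.1 to 17.7 ± 4.39 FPKM (log2 fold change 0.91). Klf6 was at means of 13 ± 0.829 and 16.1 ± 3.15 FPKM and was not called. Gadd45b, a stress sensor named by the study, was below the filter, at 0.305, 0.602 and 0.691 FPKM in the control libraries and 1.44, 1.16 and 1.44 FPKM in the dbdb libraries.

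Targets of the PPAR nuclear receptors, which control fatty acid use, gave 13 of 24 higher and 4 lower (median 0.37), 12 higher and 2 lower without dbdb3 and control3, and 14 higher and 2 lower with mitochondrial genes left out. Beside Cyp4a14, Angptl4, an inhibitor of lipoprotein lipase, was at 4.83, 6.17 and 9.93 FPKM in the control libraries and 21.2, 23.6 and 33.2 FPKM in the dbdb libraries (log2 fold change 1.92, SE 0.35, adjusted p = 0.00277). Pdk4, which holds back pyruvate oxidation, was at 1.2, 1.5 and 1.3 FPKM in the control libraries and 3.99, 3.64 and 5.21 FPKM in the dbdb libraries (log2 fold change 1.6, SE 0.15, adjusted p = 6.34e-05). Ppara, the receptor itself, rose from 37.3 ± 2.48 to 64.2 ± 6.59 FPKM (log2 fold change 0.78), and Ucp2, a mitochondrial carrier, rose from 10.7 ± 1.54 to 21.7 ± 2.57 FPKM (1.01). Against these, Cd36, the fatty acid translocase and also a PPAR target, was at 211, 206 and 349 FPKM in the control libraries and 33.2, 35.3 and 41.5 FPKM in the dbdb libraries (log2 fold change -2.76, SE 0.19, adjusted p = 1.51e-05), and Ehhadh, the peroxisomal bifunctional enzyme, fell from 235 ± 37.6 to 119.7 ± 1.46 FPKM (-0.96). Cpt1a and Vnn1 were at means of 127 and 134 FPKM and 42.5 and 37.2 FPKM and were not called.

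Enzymes of mitochondrial fatty acid oxidation gave 8 of 26 higher and 4 lower (median 0.020). The called share was 46.2%, against 30.1% of all genes tested. There were 5 higher and 2 lower without dbdb3 and control3 and 13 higher and 2 lower with mitochondrial genes left out. Cpt1b, a carnitine palmitoyltransferase, rose from 3.18 ± 0.434 to 6.32 ± 0.582 FPKM (log2 fold change 0.97, SE 0.11, adjusted p = 0.000168), Acaa2, a thiolase, rose from 111 ± 4.98 to 214 ± 41.1 FPKM (log2 fold change 0.93, SE 0.13, adjusted p = 0.000811), and Acadm, the medium-chain dehydrogenase, fell from 379 ± 42.1 to 274 ± 13 FPKM (log2 fold change -0.47, SE 0.088, adjusted p = 0.00367). In peroxisomes 4 of 23 rose and 7 fell (median -0.080), a balance that turned to 9 higher and 4 lower with mitochondrial genes left out. Crot, carnitine octanoyltransferase, fell from 146 ± 14.3 to 61.3 ± 1.28 FPKM (log2 fold change -1.25, SE 0.071, adjusted p = 6.14e-06), Amacr, a racemase of branched-chain acyl-CoA, fell from 125 ± 23.1 to 43.2 ± 5.05 FPKM (log2 fold change -1.52, SE 0.13, adjusted p = 4.11e-05), and Acot3, an acyl-CoA thioesterase, rose from 9.59 ± 1.96 to 17.7 ± 1.96 FPKM (log2 fold change 0.89, SE 0.14, adjusted p = 0.00108).

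Of 9 tested genes of ketone body metabolism, 2 rose and 4 fell, the latter including enzymes that interconvert and use ketone bodies. Bdh1, hydroxybutyrate dehydrogenase, was at 50.2, 38.4 and 67.5 FPKM in the control libraries and 12.7, 13.1 and 16 FPKM in the dbdb libraries (log2 fold change -1.86, SE 0.18, adjusted p = 0.000101), Oxct1, the first enzyme of ketone body use, fell from 586 ± 46.7 to 369.6 ± 15.8 FPKM (log2 fold change -0.66), and Acat1, a thiolase of both pathways, fell from 245 ± 18 to 139 ± 6.33 FPKM (-0.82). Among 6 tested fatty acid hydroxylases of the Cyp4 family, 2 rose (Cyp4a14 and Cyp4a10, the latter from 86.3 to 184 FPKM) and 2 fell (Cyp4a12a and Cyp4b1, the latter from 2052 to 578 FPKM). Cyp4a10 and Cyp4a31, as well as Cyp4a12a and Cyp4a12b, are near copies, and their division of reads is uncertain.

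Fatty acid synthesis genes gave 6 of 20 higher and 5 lower (median -0.066), and 7 higher and 3 lower with mitochondrial genes left out. Me1, malic enzyme, fell from 175 ± 10.2 to 78.8 ± 5.66 FPKM (log2 fold change -1.15, SE 0.071, adjusted p = 9.19e-06), Scd1, stearoyl-CoA desaturase, fell from 15.9 ± 2.86 to 8.07 ± 0.963 FPKM (log2 fold change -0.96, SE 0.22, adjusted p = 0.00917), and Acacb, the acetyl-CoA carboxylase of mitochondria, rose from 3.2 ± 0.714 to 6.25 ± 0.418 FPKM (log2 fold change 0.96, SE 0.13, adjusted p = 0.000666). Thrsp, a lipogenic regulator, rose from 1.6 ± 0.356 to 4.05 ± 0.32 FPKM (log2 fold change 1.31). For uptake and storage of lipids 6 of 18 rose and 7 fell (median 0.13), with mitochondrial genes left out 10 rose and 5 fell, and without dbdb3 and control3 5 rose and 4 fell. Lpl, lipoprotein lipase, was at 161, 130.03 and 180.1 FPKM in the control libraries and 48.7, 40.5 and 45.1 FPKM in the dbdb libraries (log2 fold change -1.8, SE 0.12, adjusted p = 1e-05). Slc27a1 and Mgll, a fatty acid transporter and monoacylglycerol lipase, rose from 5.74 to 10.5 FPKM (0.86) and from 7.04 to 13.1 FPKM (0.89).

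No gene of cholesterol synthesis and uptake rose, and 7 of 24 fell (median -0.16). With mitochondrial genes left out 5 fell and 2 rose. Cyp51, lanosterol demethylase, was at 73.1, 76.2 and 89.1 FPKM in the control libraries and 16.3, 14.4 and 13.3 FPKM in the dbdb libraries (log2 fold change -2.43, SE 0.11, adjusted p = 3.35e-06). Idi1, isopentenyl diphosphate isomerase, was at 43.2, 38.3 and 61.6 FPKM in the control libraries and 8.35, 11.6 and 11 FPKM in the dbdb libraries (log2 fold change -2.18, SE 0.18, adjusted p = 3.63e-05), and Sc5d, a late desaturase, fell from 37.5 ± 8.1 to 18.6 ± 1.23 FPKM (log2 fold change -0.99). Hmgcs1, the cytosolic synthase at the start of the pathway, was at means of 80.6 and 66.8 FPKM and was not called.

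Transporters of organic anions and cations mostly fell, 19 of 31 tested against 6 that rose (median -0.48), 17 fell against 4 without dbdb3 and control3, and 17 against 10 with mitochondrial genes left out. Beside Slc22a7 and Slco1a1, Slc17a3, a urate and phosphate carrier, fell from 279.5 ± 26.9 to 96.9 ± 10.1 FPKM (log2 fold change -1.53, SE 0.11, adjusted p = 2e-05), Slc22a2, the basolateral organic cation transporter OCT2, fell from 152 ± 23.5 to 62.7 ± 7.72 FPKM (log2 fold change -1.27, SE 0.12, adjusted p = 7.39e-05), and Slc22a12, the urate carrier URAT1, fell from 488 ± 38.9 to 239 ± 25.9 FPKM (log2 fold change -1.03, SE 0.089, adjusted p = 4.82e-05). Efflux pumps were among those that rose. Abcc4, the pump MRP4, rose from 12.4 ± 2.68 to 32.6 ± 5.96 FPKM (log2 fold change 1.4, SE 0.17, adjusted p = 0.000332), and Abcb1b, a P-glycoprotein, rose from 2.63 ± 0.2996 to 5.42 ± 0.554 FPKM (log2 fold change 1.01, SE 0.10, adjusted p = 0.000118), while Abcg2 fell from 374 ± 11.6 to 268 ± 19.4 FPKM (log2 fold change -0.48). Slc22a4 and Slc22a5, the carnitine transporters OCTN1 and OCTN2, were at means of 25.6 and 22.7 FPKM and 106 and 109.5 FPKM and were not called. Slc22a26 to Slc22a30 are close relatives in 1 cluster, so their shares of the reads are uncertain.

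Glucuronidation genes gave 5 of 16 higher and 6 lower (median -0.16). In the Ugt1a family, Ugt1a1 and Ugt1a10 rose from 1.85 ± 0.418 to 20.6 ± 4.83 FPKM (log2 fold change 3.4, SE 0.18, adjusted p = 5.51e-06) and from 16.6 ± 3.88 to 42.6 ± 3.39 FPKM (log2 fold change 1.38, SE 0.15, adjusted p = 0.00015), along with Ugt1a2. In the Ugt2b and Ugt3a families, Ugt2b38 and Ugt3a2 fell from 983 ± 142 to 275 ± 18.4 FPKM (log2 fold change -1.83, SE 0.12, adjusted p = 1.22e-05) and from 904 ± 60.4 to 508 ± 30.2 FPKM (log2 fold change -0.83, SE 0.085, adjusted p = 0.000121). Ugt2b37 and Ugt2b38 are near copies.

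Amino acid transporters gave 8 of 23 higher and 8 lower, and 10 higher and 6 lower with mitochondrial genes left out. Slc1a4, a neutral amino acid carrier, fell from 7.21 ± 1.86 to 2.26 ± 0.0933 FPKM (log2 fold change -1.6, SE 0.16, adjusted p = 0.000119, and adjusted p = 0.0531 from the highest transcript alone), and Slc43a2, a carrier of large neutral amino acids, rose from 34.2 ± 2.59 to 61.9 ± 4.95 FPKM (log2 fold change 0.85, SE 0.092, adjusted p = 0.000163). Slc3a2, the heavy chain shared by several carriers, rose from 93 ± 11.3 to 147 ± 13.4 FPKM (log2 fold change 0.67). Slc6a19 and Slc7a7 were at means of 176 and 227 FPKM and 125 and 145 FPKM and were not called. The machinery that takes back filtered protein gave 1 of 18 higher and 4 lower (median -0.035). Its called share was 27.8%, near the 30.1% of all genes tested. With mitochondrial genes left out 5 were higher and 2 lower, and without dbdb3, control3 or both 1 was higher and 2 lower. Lrpap1, the chaperone of megalin, fell from 267 ± 27.4 to 179 ± 8.59 FPKM (log2 fold change -0.57, SE 0.10, adjusted p = 0.00205), Ctsh, a lysosomal protease, fell from 126 ± 18.6 to 88.9 ± 8.78 FPKM (log2 fold change -0.50, SE 0.11, adjusted p = 0.00647), and Lgmn, another, rose from 448 ± 12.9 to 564 ± 22.9 FPKM (log2 fold change 0.33, SE 0.063, adjusted p = 0.00363). Lrp2, megalin, was at means of 574 ± 34.2 and 457 ± 85.6 FPKM (adjusted p = 0.0568).

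Podocyte markers were more often higher than lower. Of 19 podocyte markers, 10 rose and 2 fell (median 0.29), and without dbdb3 and control3 only 5 rose and 1 fell. Nphs1, nephrin, a structural protein of the slit diaphragm, was at 4.25, 3.13 and 3.08 FPKM in the control libraries and 5.65, 6.62 and 6.79 FPKM in the dbdb libraries (log2 fold change 0.86, SE 0.15, adjusted p = 0.00221). Cdkn1c, the cell cycle inhibitor p57, and Npnt, the basement membrane protein nephronectin, rose from 8.55 ± 1.29 to 16.4 ± 1.32 FPKM (log2 fold change 0.94) and from 19.2 ± 1.92 to 32.9 ± 1.93 FPKM (0.78). Clic5, a chloride intracellular channel protein, fell from 52.1 ± 0.888 to 38.4 ± 1.5 FPKM (-0.44).

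Endothelial markers gave 4 of 13 lower and 1 higher (median 0.042), 2 lower and none higher without both libraries, and 2 lower and 3 higher with mitochondrial genes left out. Emcn, endomucin, fell from 36 ± 1.16 to 23.6 ± 0.751 FPKM (log2 fold change -0.61, SE 0.084, adjusted p = 0.000659), and Plvap, a protein of fenestral diaphragms, was at means of 40.9 ± 3.73 and 45.9 ± 4.21 FPKM and was not called. Markers of mesangial cells, pericytes and smooth muscle gave 2 of 12 higher and 2 lower, 2 and 1 without both libraries, and 3 higher and none lower with mitochondrial genes left out. Cspg4, the pericyte protein NG2, rose from 3.6 ± 0.31 to 5.76 ± 1.15 FPKM (log2 fold change 0.65, SE 0.14, adjusted p = 0.00586), and Gata3, a transcription factor also found in principal cells, rose from 3.06 ± 0.494 to 5.28 ± 0.617 FPKM (log2 fold change 0.78, SE 0.12, adjusted p = 0.00141).

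The list of genes whose proteins were followed by western blot held 6 members, of which only Nphs1 was called, and it was higher. The paper reported less nephrin, E-cadherin and phosphorylated AMPK protein and more fibronectin and vimentin protein in the dbdb cortex. The direction of Nphs1 mRNA was thus opposite to that reported for its protein. The blot followed the phosphorylated form of AMPK, which the mRNA of its subunits does not measure. Fn1, fibronectin, was at 5.44, 4.1 and 3.08 FPKM in the control libraries and 4.09, 3.25 and 5.56 FPKM in the dbdb libraries (log2 fold change 0.033, SE 0.22, adjusted p = 0.927), and the groups overlapped. Cdh1, E-cadherin, had a log2 fold change of 0.13 (SE 0.065), Vim, vimentin, of 0.031 (SE 0.17), and Prkaa1 and Prkaa2, the catalytic subunits of AMPK, of -0.044 (SE 0.069) and -0.13 (SE 0.064). The signs of Fn1, Vim, Prkaa1 and Prkaa2 differed between processing alternatives. Extracellular matrix genes gave 6 of 30 higher and 5 lower (median 0.078), but 3 higher and 7 lower without dbdb3 and control3, and 11 higher and 3 lower with mitochondrial genes left out. Ctgf, a matricellular target of TGF-β and YAP, rose from 21.6 ± 2.61 to 42.8 ± 10.6 FPKM (log2 fold change 0.96, SE 0.16, adjusted p = 0.002), and Thbs1, thrombospondin, rose from 7.002 ± 0.248 to 12.8 ± 1.01 FPKM (log2 fold change 0.86, SE 0.10, adjusted p = 0.000199). Col3a1, a fibrillar collagen, fell from 7.11 ± 2.41 to 3.13 ± 1.06 FPKM (log2 fold change -1.16, SE 0.25, adjusted p = 0.00738), and Timp3, an inhibitor of matrix proteases, fell from 726 ± 64.1 to 459 ± 33 FPKM (log2 fold change -0.66, SE 0.082, adjusted p = 0.000319).

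Markers of tubular injury gave 6 of 17 higher and 1 lower (median 0.26), and 11 higher and 1 lower with mitochondrial genes left out. Spp1, osteopontin, was at 411, 395 and 331 FPKM in the control libraries and 932, 1035 and 1326 FPKM in the dbdb libraries (log2 fold change 1.52, SE 0.13, adjusted p = 5.08e-05). Cdkn1a, the cell cycle inhibitor p21, was at 1.42, 1.52 and 1.07 FPKM in the control libraries and 3.46, 4.85 and 6.14 FPKM in the dbdb libraries (log2 fold change 1.75, SE 0.20, adjusted p = 0.000197), and Clu, clusterin, rose from 54.6 ± 3.46 to 109 ± 6.9 FPKM (log2 fold change 0.99, SE 0.081, adjusted p = 3.62e-05). The dbdb libraries were all above the control libraries for these genes, and dbdb3 was the highest. Il34, a ligand of the macrophage receptor CSF1R made by injured tubules, fell from 6.47 ± 1.45 to 1.77 ± 0.752 FPKM (log2 fold change -1.86, SE 0.30, adjusted p = 0.00138). The common injury markers Havcr1 (KIM-1) and Lcn2 (NGAL) were below the filter, at 0.445, 0.386 and 0.713 FPKM in the control libraries and 0.233, 0.131 and 0.32 FPKM in the dbdb libraries and at 0.208, 0.269 and 0.553 FPKM in the control libraries and 0.828, 0.805 and 1.36 FPKM in the dbdb libraries, respectively.

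Of 11 tested markers of macrophages and monocytes, 6 fell and none rose (median -0.87), and 10 fell without dbdb3, with or without control3. Their summed FPKM was 69.2 to 86.2 FPKM in the control libraries and 35 to 59.2 FPKM in the dbdb libraries, the highest dbdb value being that of dbdb3. Csf1r, the receptor for CSF1 and IL-34, was at 11.5, 9.5 and 13.5 FPKM in the control libraries and 3.62, 4.77 and 4.79 FPKM in the dbdb libraries (log2 fold change -1.37, SE 0.14, adjusted p = 0.000138). Lyz2, lysozyme, and Adgre1, the F4/80 antigen, fell from 13.3 ± 2.96 to 6.05 ± 0.89 FPKM (log2 fold change -1.11) and from 1.74 ± 0.356 to 0.802 ± 0.183 FPKM (-1.03). C1qa and C1qb, complement subunits made by macrophages, were at means of 15.2 ± 1.02 and 10.7 ± 3.47 FPKM and 14.8 ± 1.69 and 10.1 ± 3.48 FPKM and were called lower only where dbdb3 was left out (adjusted p = 0.00921 and 0.00642 without it, 0.0234 and 0.0194 without both). Ptprc, the pan-leukocyte antigen CD45, which macrophages also carry, was at 4.49, 3.87 and 3.68 FPKM in the control libraries and 1.25, 1.26 and 1.97 FPKM in the dbdb libraries (log2 fold change -1.39, SE 0.18, adjusted p = 0.000462), and Jchain, of plasma cells, fell from 3.46 ± 1.43 to 0.841 ± 0.481 FPKM (-1.96). These were the 2 tested of 12 markers on the lymphocyte list, no marker particular to T or B cells being tested, and Cd3e, of T cells, was at no more than 0.407 FPKM in any library. Of 7 granulocyte markers 2 passed the filter, and S100a8 was called higher (1.03, 0.883 and 0.828 FPKM in the control libraries and 2.64, 1.2 and 2.19 FPKM in the dbdb libraries, adjusted p = 0.0245, but not called without control2, control3, dbdb1 or dbdb3, and 0.144 without dbdb3 and control3). The dbdb means of Adgre1 and Jchain and the control mean of S100a8 were under 1 FPKM, so these genes passed the filter through the other groups.

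**Figure D5:**
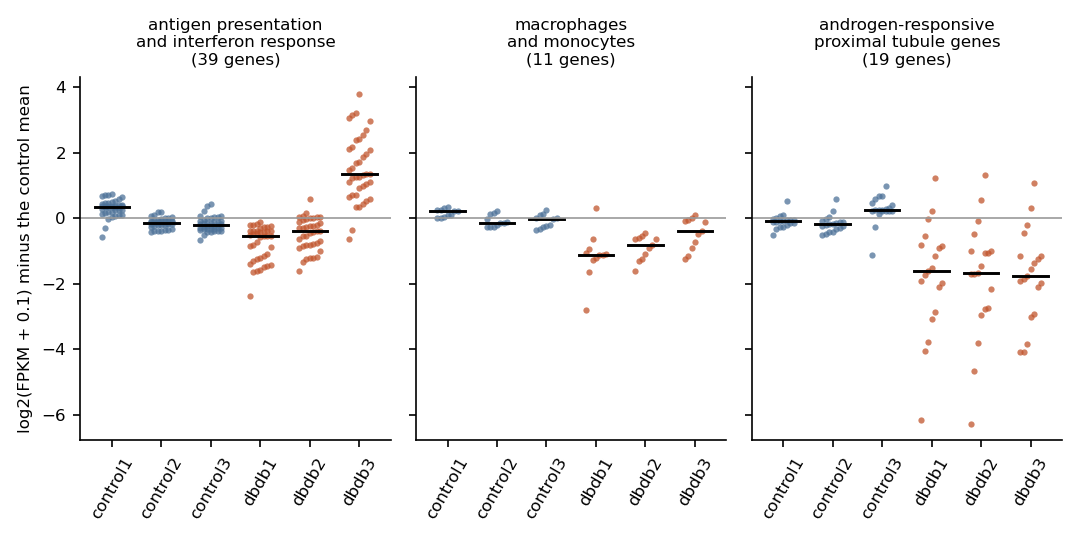
Log2(FPKM + 0.1) of each gene minus its mean over the control libraries (y axis), in each of the 6 libraries, for 3 lists. Points are genes and bars are medians. The antigen presentation genes are low in dbdb1 and dbdb2 and high in dbdb3, the macrophage markers are lower in all 3 dbdb libraries, and the androgen-responsive genes are lower in all 3 alike.

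Genes of antigen presentation and the interferon response depended on dbdb3. With all libraries 0 of 39 rose and 1 fell, Ifi44, an interferon-induced gene (from 4.94 ± 0.436 to 3.08 ± 0.101 FPKM, log2 fold change -0.66, SE 0.10, adjusted p = 0.000876), and the median was 0.14. Without dbdb3, 13 of 39 were called lower and none higher, and without dbdb3 and control3 16 were, with a median of -0.57. Cd74, the invariant chain of MHC class II, was at 188, 129 and 103 FPKM in the control libraries and 57.6, 77.7 and 872 FPKM in the dbdb libraries (log2 difference 0.21, adjusted p = 0.869, and -1.22, adjusted p = 0.0255 without both). H2-Aa, an MHC class II chain, was at 24.9, 19 and 19.5 FPKM in the control libraries and 6.68, 8.92 and 93.7 FPKM in the dbdb libraries (log2 difference -0.23, adjusted p = 0.847, and -1.48, adjusted p = 0.00481 without both). Psmb8, a subunit of the immunoproteasome, was at 8.28, 5.88 and 5.48 FPKM in the control libraries and 2.1, 3.65 and 54.2 FPKM in the dbdb libraries (log2 difference 0.23, adjusted p = 0.874, and -1.3, adjusted p = 0.007 without both). In each case dbdb1 and dbdb2 lay below the control libraries and dbdb3 far above them, and the summed FPKM of the list was 607 in dbdb1, 669 in dbdb2 and 3316 in dbdb3.

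Complement genes gave 3 of 16 higher and 3 lower (median 0.084), 3 higher and 6 lower without dbdb3, 2 higher and 5 lower without both libraries, and 4 higher and 2 lower with mitochondrial genes left out. C3, the central component, was at 7.47, 4.74 and 4.46 FPKM in the control libraries and 20.5, 28.6 and 30.4 FPKM in the dbdb libraries (log2 fold change 2.25, SE 0.20, adjusted p = 5.33e-05). Cd55, which protects cells from complement, fell from 6.97 ± 0.762 to 2.74 ± 0.22 FPKM (log2 fold change -1.31, SE 0.12, adjusted p = 5.22e-05), and Cd59a, another protective protein, rose from 15.1 ± 0.663 to 21.4 ± 2.26 FPKM (log2 fold change 0.49, SE 0.079, adjusted p = 0.00148). Targets of NF-κB and chemokines gave 5 of 20 higher and 1 lower (median 0.25), but 1 higher and 1 lower without dbdb3, 2 higher and none lower without control3, 1 and 1 without both, and 9 higher and none lower with mitochondrial genes left out. Of the 5, Per1 was the member still called without both. Icam1 and Nfkb1, an adhesion molecule and a subunit of NF-κB, were at means of 5.09 and 5.89 FPKM and 6.35 and 7.28 FPKM and were not called.

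Of 14 genes of the renin-angiotensin and natriuretic systems, 4 fell and 1 rose (median -0.067), with mitochondrial genes left out 3 fell and 5 rose, and without dbdb3 and control3 3 fell and none rose. Ace, the angiotensin-converting enzyme, was at 46.8, 42.3 and 49 FPKM in the control libraries and 11.4, 10.04 and 10.2 FPKM in the dbdb libraries (log2 fold change -2.11, SE 0.12, adjusted p = 7.43e-06). Mme, neprilysin, which degrades natriuretic peptides, fell from 58.6 ± 1.68 to 34.2 ± 0.729 FPKM (log2 fold change -0.78, SE 0.05, adjusted p = 9.35e-06), and Npr3, their clearance receptor, was at 5.35, 6.25 and 6.24 FPKM in the control libraries and 2.62, 2.83 and 3.01 FPKM in the dbdb libraries (log2 fold change -1.05, SE 0.087, adjusted p = 3.88e-05). Groups were fully apart for these genes. Ren1, renin, was at 32, 47.6 and 67.4 FPKM in the control libraries and 41.7, 36.6 and 55.1 FPKM in the dbdb libraries (log2 fold change -0.10, SE 0.25, adjusted p = 0.796) and was not called. Enpep and Anpep, aminopeptidases that trim angiotensins, were at means of 79.6 and 82.8 FPKM and 49 and 53.2 FPKM and were not called.

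Insulin, IGF and leptin signalling gave 8 of 29 higher and 3 lower (median -0.050), and 12 higher and 1 lower with mitochondrial genes left out. Foxo3 and Foxo1, transcription factors that insulin holds out of the nucleus, were at 19.8, 17.5 and 17.8 FPKM in the control libraries and 42.1, 42.3 and 40.5 FPKM in the dbdb libraries (log2 fold change 1.18, SE 0.073, adjusted p = 9.19e-06) and rose from 9.9 ± 0.2997 to 16.8 ± 1.34 FPKM (log2 fold change 0.76, SE 0.076, adjusted p = 0.000111), respectively. Irs1, an adaptor of the insulin receptor, rose from 2.17 ± 0.0721 to 3.38 ± 0.282 FPKM (log2 fold change 0.62), and Stat3, the transcription factor downstream of leptin and of cytokines, rose from 12.5 ± 1.71 to 23.1 ± 4.4 FPKM (0.87). Ghr, the growth hormone receptor, was at 412, 365 and 438 FPKM in the control libraries and 213, 195 and 191 FPKM in the dbdb libraries (log2 fold change -1.02, SE 0.08, adjusted p = 3.04e-05). Igf1r and Igfbp5 were at means of 56.9 and 64.7 FPKM and 119.9 and 105 FPKM and were not called.

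Antioxidant genes gave 12 of 42 higher and 11 lower (median -0.046), and 16 higher and 7 lower with mitochondrial genes left out. Gclm and Gclc, the subunits of the first enzyme of glutathione synthesis, fell from 167 ± 10.9 to 74.6 ± 0.162 FPKM (log2 fold change -1.16, SE 0.065, adjusted p = 6.14e-06) and from 75.1 ± 13.8 to 41.7 ± 2.1 FPKM (log2 fold change -0.83, SE 0.12, adjusted p = 0.000722), and Gss, glutathione synthetase, fell from 166 ± 22.5 to 103 ± 4.31 FPKM (log2 fold change -0.68). Ggt1, which breaks down glutathione at the brush border, fell from 725 ± 61.4 to 385 ± 18.9 FPKM (-0.91), and Sod1, a superoxide dismutase, fell from 832 ± 73.7 to 523 ± 22.7 FPKM (-0.67). Transferases that rose included Gsta2 (from 23.3 ± 3.51 to 126 ± 99.7 FPKM, log2 fold change 2.14, SE 0.44, adjusted p = 0.00525) and Mgst1 (from 55 ± 1.03 to 98.8 ± 8.61 FPKM, log2 fold change 0.84, SE 0.074, adjusted p = 5.14e-05), and Nox4, the NADPH oxidase of the tubule, rose from 237 ± 24.8 to 309 ± 12.2 FPKM (0.39). The log2 fold change of Gsta2 was 1.53 without dbdb1 and 2.76 without dbdb3 and control3.

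Of 20 heat shock proteins, 9 fell and 1 rose (median -0.19), and 8 fell and none rose without dbdb3 and control3. Hspa8, the constitutive HSC70, fell from 955 ± 43.6 to 633 ± 55 FPKM (log2 fold change -0.60, SE 0.09, adjusted p = 0.00104), Dnaja1, its cochaperone, fell from 205 ± 21.1 to 122 ± 3.25 FPKM (log2 fold change -0.75, SE 0.084, adjusted p = 0.000194), and Hspd1, the mitochondrial HSP60, fell from 357 ± 27.7 to 247 ± 19.5 FPKM (log2 fold change -0.53, SE 0.08, adjusted p = 0.00103). Hsp90aa1, near 0 in control3, was at 99.2, 103 and 98 FPKM in the dbdb libraries, and its log2 fold change of 1.32 (adjusted p = 0.484) became -0.75 (adjusted p = 0.00316) without that library. Of 25 genes of endoplasmic reticulum stress and the amino acid response, 4 rose and 7 fell (median -0.11), and with mitochondrial genes left out 4 rose and 1 fell. The member that stayed lower under both scalings was Pdia4, a disulfide isomerase (from 67.5 ± 3.75 to 49 ± 0.731 FPKM, log2 fold change -0.46, SE 0.061, adjusted p = 0.000502), and Herpud1, of protein degradation at the reticulum, rose from 156 ± 13.2 to 258 ± 4.58 FPKM (log2 fold change 0.74, SE 0.072, adjusted p = 9.51e-05). Of 37 proteasome genes, 22 fell and none rose (median -0.28), 11 fell and 1 rose without control3, and 9 fell and none rose without both. Each change was small, and with mitochondrial genes left out 6 fell and 2 rose. Psmc4 and Psmd14, subunits of the regulatory particle, fell from 63.8 ± 4.49 to 48 ± 1.88 FPKM (log2 fold change -0.41, SE 0.063, adjusted p = 0.00117) and from 38.9 ± 3.65 to 29 ± 1.94 FPKM (log2 fold change -0.42, SE 0.083, adjusted p = 0.00468).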

How the data were processed

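Total RNA from the renal cortex of 1 mouse per library was depleted of ribosomal RNA, and strand-specific libraries were sequenced by the authors as paired 150-base reads. The authors aligned the reads to the mouse genome (GRCm38) with TopHat2 2.0.9, assembled transcripts, and deposited FPKM per transcript from Cufflinks 2.1.1. No read counts were used here, and an exact 0 can be a failed estimate.

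From the 50660 deposited mRNA transcripts, FPKM was summed over transcripts of the same gene, which gave 21950 genes, 11615 of them with a mean of at least 1 FPKM over 9 libraries. Gene symbols that a spreadsheet had turned into dates (27) were restored from the gene identifiers. Log2(FPKM + 0.1) was fitted with limma 3.58.1 (R 4.3.3) over 9 libraries with a mean per group and trended empirical Bayes variances, and the dbdb minus control contrast was adjusted by Benjamini-Hochberg over all genes tested (two-sided, adjusted p under 0.05). Fold changes on this scale are understated for low genes. With 3 mice per group, p-values measure the spread between these mice.

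Members and gene lists (58) were chosen with earlier results of these data known, so list counts and medians are descriptions without a test. Named genes were the 15 largest called changes in each direction without overlap between groups, genes named by the study, and of each list the called members and the most abundant uncalled ones, not all of which are printed. Other genes named were chosen after their values were seen (Rrp1, Sftpc, Scgb1a1, Slc14a2, Cd3e, Havcr1, Lcn2). On simulated data (200 of 11615 genes changed), changes of 0.5, 1 and 2 on the log2 scale were recovered for 57.5%, 93.5% and 97% of genes. Alternatives were other pseudocounts, filters, scalings and variance models, the highest transcript of each gene, a replicate block, and each library, or both dbdb3 and control3, left out. The mitochondrial share with libraries left out was added after seeing the data. Promoters (RefSeq, GRCm38.p6) were matched by symbol. The deposited FPKM of long non-coding RNAs was not used. Some genes are not reported here.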

Additional observations from a re-analysis of the deposited data

How the results depend on the processing

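Of 3498 calls, 1490 were kept under all 20 alternatives, and none of the 209 called genes named in the text had the other sign in any of them. Of these, 200 were also called under every alternative other than the replicate block, and of 42 named genes that were not called, 29 passed under at least 1. The replicate numbers did not pair the samples (correlations of -0.15, 0.040 and -0.19), and with the replicate block 2344 genes were called, 1176 higher and 1168 lower, with Cyp24a1 and Fabp4 losing their calls. Without dbdb3 and control3, 2178 were called, 1114 higher and 1064 lower. With mitochondrial genes left out, 3246 were higher and 828 lower. With 1 library left out at a time, 2527 (without control3) to 3011 (without dbdb1) genes were called. The share of mitochondrially encoded mRNA in summed FPKM differed by -0.0458 percentage points (dbdb minus control), by -0.563 to 0.454 with 1 library left out and by 0.608 without both, alternatives chosen after seeing the data.

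Signs turned for 10 named genes that were not called. With 1 library left out, the log2 fold change ranged from -1.02 to 0.94 for Cd74, from -0.17 to 0.23 for Fn1, from -1.43 to 0.47 for H2-Aa, from -0.75 to 2.48 for Hsp90aa1, from -1.19 to 1.13 for Psmb8, from -0.37 to 0.17 for Ren1, from -0.38 to 0.043 for Umod and from -0.10 to 0.19 for Vim. Without dbdb3 and control3 it was -1.22 for Cd74, -0.37 for Fn1, -0.74 for Hsp90aa1, -1.30 for Psmb8, 0.00085 for Ren1 and -0.046 for Vim. With mitochondrial genes left out it was 0.11 for Prkaa1, 0.031 for Prkaa2, 0.062 for Ren1 and 0.056 for Umod, at the same 75th percentile 0.0061 for Prkaa1, with quantile normalization -0.039 for Fn1, and with the highest transcript of each gene -0.015 for Vim. Apart from the libraries left out, the cause was not tested. Of 57 list medians, 23 had the other sign under an alternative, 1 of them over 0.2 in size. FPKM holds no counts, so no counting error is given, and low values rest on few reads.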

Other observations

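Cell cycle genes gave 3 of 24 higher and 5 lower (median -0.050), and 6 higher and 3 lower with mitochondrial genes left out. Of the D cyclins, which drive entry into the cycle, Ccnd1 was at 118, 126 and 117 FPKM in the control libraries and 183, 190.2 and 235 FPKM in the dbdb libraries (log2 fold change 0.75, SE 0.11, adjusted p = 0.000798), whereas Ccnd2 fell from 5.05 ± 0.501 to 3.34 ± 0.452 FPKM (log2 fold change -0.59, SE 0.11, adjusted p = 0.00423). Cdk6, their kinase partner, fell from 8.81 ± 0.603 to 5.92 ± 0.594 FPKM (log2 fold change -0.57), and Mcm6, a subunit of the replication helicase, fell from 7.27 ± 0.247 to 4.86 ± 1.06 FPKM (-0.59). Markers of dividing cells were near the filter and were not called, Mki67 being at 1.9, 2.1 and 0.888 FPKM in the control libraries and 0.672, 0.848 and 1.27 FPKM in the dbdb libraries and Top2a at means of 1.38 ± 0.455 and 0.853 ± 0.255 FPKM.

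Most genes of protein synthesis and the respiratory chain were not called, and their balance turned with the scaling. The called shares were 2.44% for cytosolic and 26.3% for mitochondrial ribosomal proteins and 4.94% for nuclear respiratory chain genes. Of all genes tested, 30.1% were called. Of 82 cytosolic ribosomal protein genes, 1 rose and 1 fell (median -0.016), but 20 rose and 1 fell with mitochondrial genes left out. Of 76 mitochondrial ribosomal protein genes, 2 rose and 18 fell (median -0.13), against 9 and 3 with mitochondrial genes left out, 1 and 5 without dbdb3 or without control3, and 1 and 4 without both. Nuclear genes of the respiratory chain gave 3 of 81 higher and 1 lower (median 0.033), against 42 and 1 with mitochondrial genes left out and 4 and none without dbdb3 and control3. None of the 13 mitochondrially encoded genes was called (median -0.17).

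In the list of genes made mainly by the liver, 2 of 3 tested rose. Alb, albumin, was at 4.9, 4.81 and 5.17 FPKM in the control libraries and 10.2, 11.3 and 6.8 FPKM in the dbdb libraries (log2 fold change 0.88, SE 0.16, adjusted p = 0.0033), and Fga, a fibrinogen chain, rose from 8.77 ± 0.385 to 17.2 ± 3.03 FPKM (log2 fold change 0.95, SE 0.12, adjusted p = 0.00043). Serpina3k and Ahsg, defining liver genes, were at 0 in these files. Haemoglobin genes were highest in control1, and the red blood cell list summed to 15.8 to 111 FPKM in the control libraries and 15.6 to 26.6 FPKM in the dbdb libraries, with none of 5 tested genes called, and 1 called higher without dbdb3 and control3. Their copies are nearly identical. Of 8 adipocyte markers only Fabp4 was tested, falling from 36.3 ± 5.54 to 25.9 ± 6.11 FPKM (adjusted p = 0.0324), not called without control2, control3, dbdb2 or dbdb3 and with an adjusted p of 0.231 without dbdb3 and control3. Of 8 adrenal markers 2 were tested and 1 was called, Akr1b7, falling from 2.57 to 1.66 FPKM (adjusted p = 0.0388), not called without control1, control3, dbdb1 or dbdb2 (up to 0.125) and not called with mitochondrial genes left out, where the other tested marker was called higher. None of 6 skeletal muscle markers passed the filter. Akr1b3, aldose reductase, which makes sorbitol from glucose and marks the inner medulla, was at 43.9, 38.2 and 60.6 FPKM in the control libraries and 19.1, 17.4 and 23.6 FPKM in the dbdb libraries (log2 fold change -1.23, SE 0.17, adjusted p = 0.000659).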
